A study of Homo sapiens with 12 samples.

Results

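The line difference under doxycycline was described over 6 of the 12 arrays of the series, all of the established cell line Caco-2, from a human colorectal cancer. The arrays compared were 3 of a line labelled as an inducible LRH-1 knockdown by short hairpin RNA (shRNA) and 3 of a control line, both harvested 96 h after addition of 5 µg/ml doxycycline, the drug that switches such hairpins on. They were chosen by their titles alone. The other 6 arrays, 3 of each line without doxycycline, served for the difference between the lines without the drug and for the estimate of the spread. Titles call the control line native, but another label describes a vector with a sequence that silences nothing, and the labels do not settle which was used. More than 1 hairpin was cloned into an inducible vector that also carries a red fluorescent marker, and the labels do not say which hairpin was on the arrays or whether a line was 1 clone. Every group therefore shares the Caco-2 background and medium, and the 6 arrays compared share the drug, so the comparison holds doxycycline constant and varies the line.

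LRH-1, encoded by NR5A2, is a nuclear receptor that binds DNA as a monomer and regulates bile acid, cholesterol and steroid genes in liver and gut. In the intestinal crypt it is known for driving proliferation together with beta-catenin, through cyclin genes and MYC. Caco-2 cells are derived from the colon, but at confluence they express many genes of absorptive enterocytes and of the fetal liver, among them plasma proteins, apolipoproteins and brush border enzymes.

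Gene expression was read as log2 signal on bead arrays after background correction and quantile normalization, with the brightest probe standing for each of 12566 genes. Median signals of the 6 arrays lay between 262 and 372 intensity units and detection reached 42.6% to 43.3% of probes. Over all 12 arrays, the correlation of replicates across genes was 0.987 to 0.993, and that of arrays of different lines with doxycycline was 0.964 to 0.980. A gene was called when limma's adjusted p (Benjamini-Hochberg over all genes tested, two-sided) was under 0.05. Every adjusted p for a gene is of that kind, and every difference is the shRNA-labelled line minus the control line on the log2 scale. The labels do not say whether replicates came from separate cultures, and the p-values then reflect only the spread among these samples, which could be technical. In the text, control arrays and shRNA arrays 1 to 3 are those with doxycycline, and the others are called untreated. Differences before doxycycline are those on the untreated arrays, which are separate samples with no recorded harvest time. Whether their time in culture matched that of the others was not tested.

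NR5A2, the gene the hairpin is labelled to silence, was modestly lower in the shRNA-labelled line under doxycycline. On probe ILMN_1811303 the log2 signal lay between 10.97 and 11.18 on the control arrays and was 10.59, 10.59 and 10.84 on the shRNA arrays, so the groups did not overlap. The difference was -0.38 (SE 0.10, adjusted p = 0.0216), a 1.30-fold lower signal, and the exact permutation test (two-sided) gave p = 0.1, the smallest possible with 3 against 3 arrays. The untreated arrays lay lower than either group, at 10.10, 10.12 and 10.27 in the control line and 10.13, 10.13 and 10.24 in the shRNA-labelled line. The library labelled as silenced was thus not below its own line without the drug, and whether the differences below follow NR5A2 was not tested. A further probe of NR5A2, ILMN_2366654, differed by -0.27 (adjusted p = 0.172 over probes), and ILMN_1688932 was undetected on all 12 arrays. The call was lost without control array 1 (adjusted p = 0.0819), shRNA array 1 (0.0816) or shRNA array 2 (0.0741).

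Between the lines under doxycycline, 2846 of 12566 genes were called, which is 22.6% of those tested. Of these, 1365 (10.9%) were higher and 1481 (11.8%) lower in the shRNA-labelled line, and 560 (4.46%) differed at least 2-fold, 256 higher and 304 lower. The median difference over all genes was 0.00 and the median of its size was 0.23. Arrays of the 2 lines did not overlap for 4957 genes, or 39.4%. In these bulk samples, fewer cells of a type and less RNA per cell cannot be told apart.

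The genes highest in the shRNA-labelled line were a mixed group of a non-coding RNA, a galectin, channels, transporters and receptors. LGALS14, a galectin, read 8.23, 8.68 and 8.01 on the control arrays and 12.34, 12.40 and 12.62 on the shRNA arrays, a 17.7-fold difference (log2 4.14, SE 0.28, adjusted p = 2.65e-06). AQP10, an intestinal channel for water and glycerol, read 7.33, 7.55 and 6.50 against 10.84, 10.77 and 11.06, a 13.5-fold difference (log2 3.76, SE 0.30, adjusted p = 8.35e-06). For LGALS14 and AQP10 the shRNA arrays lay close together and far above all control arrays. SNAR-A1, a small non-coding RNA with near-identical copies in the genome, had the largest difference (log2 4.68, SE 0.40, adjusted p = 1.38e-05), but its control arrays spread from 8.43 to 10.54, and its probe cannot separate the copies.

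UBE2E3, a ubiquitin-conjugating enzyme, was 7.46-fold higher (log2 2.90), OCIAD2 6.86-fold (2.78) and the WD-repeat protein WDR54 6.79-fold (2.76). ZIC2, a zinc-finger transcription factor of neural development, read 7.99, 8.36 and 7.54 on the control arrays and 10.62, 10.73 and 10.55 on the shRNA arrays (log2 2.67, adjusted p = 1.96e-06). The transporter subunit SLC51A and the glucagon receptor GCGR were higher by 2.72 and 2.64, with SLC51A detected on 1 of 3 control arrays and GCGR on 2 of 3. Several genes were not detected on any control array, which gives only a bound. ADGRL2, an adhesion G protein-coupled receptor, was at least 4.43-fold higher, the kinase PNCK at least 3.43-fold and the secreted protein LGI4 at least 3.21-fold. Here the dim group's level was taken, per array, as the higher of its own signal and the lowest detected signal.

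The genes lowest in the shRNA-labelled line were a mixed group of secreted proteins, enzymes and membrane proteins. SERPINA5, the inhibitor of activated protein C, read 10.98, 10.58 and 11.13 on the control arrays and 6.69, 5.89 and 7.15 on the shRNA arrays, a difference of -4.32 (SE 0.32, adjusted p = 5.27e-06), with detection on 2 of 3 shRNA arrays. STC1, the secreted hormone stanniocalcin, read 10.86, 10.23 and 10.59 against 6.91, 6.09 and 7.75 (difference -3.65, SE 0.34, adjusted p = 2.26e-05), with 2 of 3 shRNA arrays detected. TDO2, which opens the ring of tryptophan to start the kynurenine pathway, read 10.84, 10.75 and 10.87 against 8.01, 7.39 and 7.88 (difference -3.06, SE 0.14, adjusted p = 2.91e-07). In all 3 genes shRNA array 2 was the lowest of its group, and none of the groups overlapped.

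The haem-binding plasma protein HPX was lower, by a difference of -3.35, the phospholipid flippase ATP10B by -3.56 and DNMT3L, a partner of DNA methyltransferases without catalytic activity of its own, by -3.14. The complement protease C1S was undetected on all shRNA arrays and at least 7.51-fold lower, the amino acid transporter SLC38A4 at least 7.15-fold and UNC13C, a vesicle-priming protein, at least 4.78-fold. GSTA5, a glutathione transferase, was 7.91-fold lower (log2 -2.98), ADH4, an alcohol dehydrogenase detected on 1 of 3 shRNA arrays, 7.37-fold (-2.88) and LDHD, D-lactate dehydrogenase, 6.57-fold (-2.72). GSTA5 has close relatives whose transcripts its probe may also bind.

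**Figure D1:**
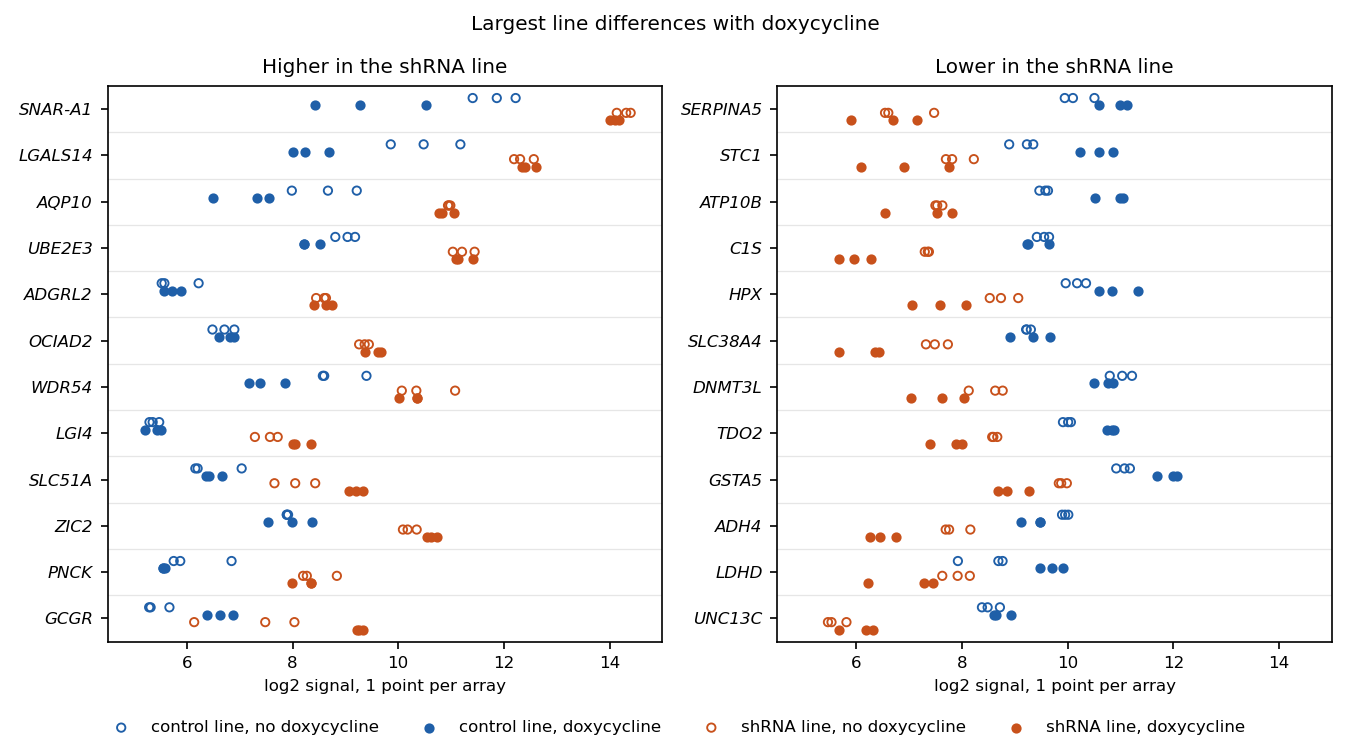
Log2 signal of the 12 genes with the largest difference each way under doxycycline, 1 point per array, for both lines with (filled) and without (open) doxycycline. For most of these genes the untreated arrays also stood apart by line. SNAR-A1 lay between 8.43 and 10.54 and LGALS14 between 8.01 and 8.68 on the control arrays with doxycycline, below all other arrays.

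Genes of cell division were higher in the shRNA-labelled line. Of 32 mitosis genes tested, 31 were called higher and 0 lower, against 10.9% higher and 11.8% lower among all genes, and their median difference was 0.77 against 0.00. NEK2, a centrosome kinase, read 11.45, 11.41 and 11.26 on the control arrays and 12.27, 12.44 and 12.39 on the shRNA arrays, 1.99-fold higher (SE 0.09 on the log2 scale, adjusted p = 2.87e-05). KIF11, the kinesin that separates spindle poles, read 9.73, 9.94 and 9.82 against 10.71, 10.99 and 10.75, also 1.99-fold higher (adjusted p = 3.92e-05). BIRC5, survivin of the chromosomal passenger complex, was higher by 0.95 (adjusted p = 6.3e-05). For NEK2 and KIF11 every shRNA array lay above every control array.

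The 250 bases upstream of NEK2 and KIF11 are shown because cell cycle genes are known for CCAAT boxes and for CHR elements, which bind NF-Y and the DREAM complex. Sequences are RefSeq's (GRCh38.p14), 5′ to 3′ on the gene's strand, NEK2 from chr1:211675622-211675871 (minus strand) and KIF11 from chr10:92592880-92593129 (plus strand). Capitals mark CCAAT or TTTGAA, or their reverse complements ATTGG and TTCAAA.
NEK2: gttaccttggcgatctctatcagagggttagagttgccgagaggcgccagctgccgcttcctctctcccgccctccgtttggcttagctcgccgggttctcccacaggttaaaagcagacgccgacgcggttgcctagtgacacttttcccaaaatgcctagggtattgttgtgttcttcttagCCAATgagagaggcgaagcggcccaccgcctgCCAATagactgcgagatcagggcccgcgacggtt
KIF11: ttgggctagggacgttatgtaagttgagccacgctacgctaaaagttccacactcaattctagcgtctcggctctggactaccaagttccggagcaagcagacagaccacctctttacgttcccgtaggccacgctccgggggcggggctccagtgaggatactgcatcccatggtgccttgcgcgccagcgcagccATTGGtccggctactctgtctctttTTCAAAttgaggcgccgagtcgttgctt
Both motifs were searched on both strands. CCAAT stood in 19 of 26 promoters of the mitosis genes called higher (73.1%), in 35.3% of the 10007 promoters of genes tested and in 33.0% of all 27305 promoters. TTTGAA stood in 12 of the 26 (46.2%), in 8.92% of those tested and in 13.6% of all. A match is a run of letters and not a shown binding site.

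By array, the mean of the mitosis genes, relative to their 12-array mean, was -0.60, -0.56 and -0.78 on the control arrays and 0.14, 0.18 and 0.16 on the shRNA arrays. The untreated arrays lay at 0.10, 0.10 and 0.07 in the control line and at 0.41, 0.34 and 0.46 in the shRNA-labelled line. The control arrays with doxycycline thus stood below the other 3 groups. Without doxycycline 10 of the 32 were called higher, at a median of 0.30, against 7.46% higher among all genes. Limma called the difference between these line differences for 0 of the 32, 23 having an unadjusted p under 0.05.

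DNA replication genes were mostly higher as well. Of 33 tested, 24 were called higher and 0 lower, with a median of 0.51 (72.7% called against 22.6% of all genes). Before doxycycline 10 were higher, at a median of 0.16, against 7.46% higher among all genes. MCM10, which helps to activate the replicative helicase, was higher by 1.04 (SE 0.12, adjusted p = 0.000115). GINS3, a helicase subunit, and POLE2, a subunit of DNA polymerase epsilon, were each higher by 0.82 (adjusted p = 0.000234 and 0.000275). The count fell from 24 to 11 with median scaling in place of quantile normalization.

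**Figure D2:**
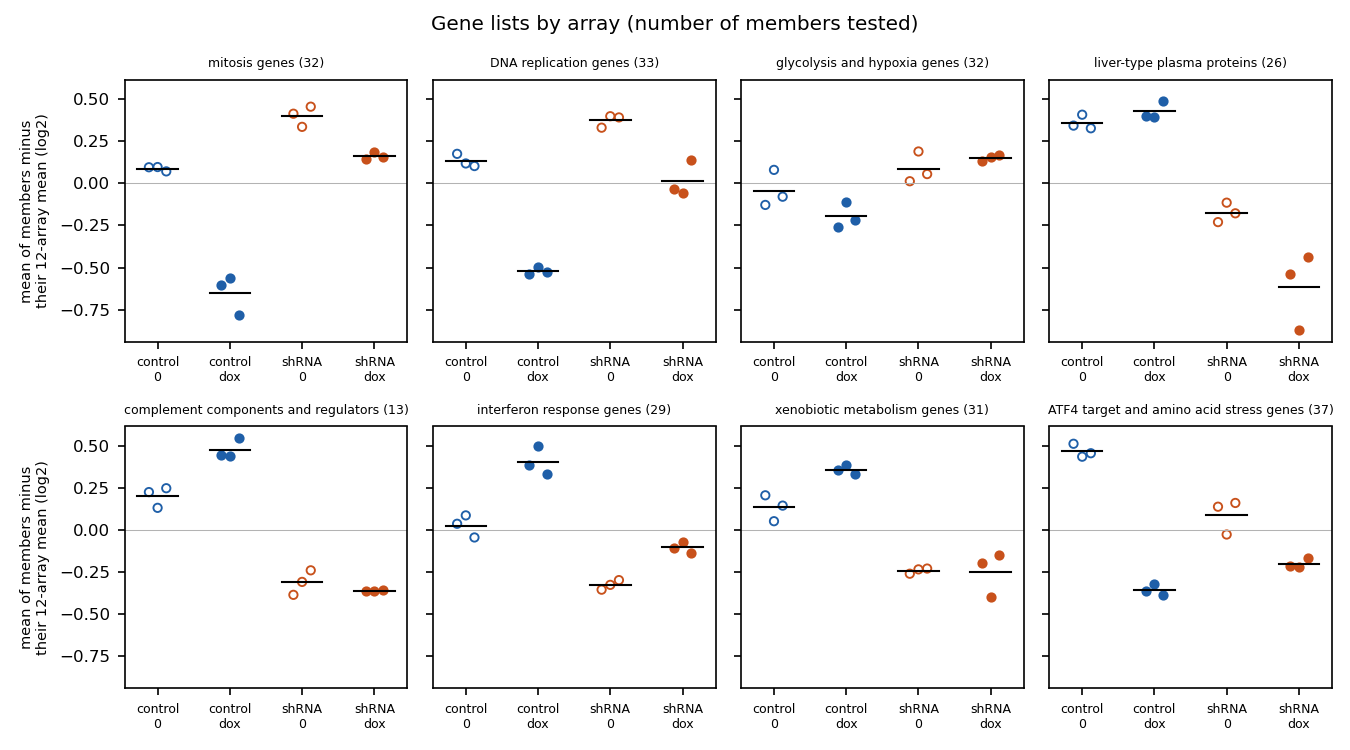
Mean of the members of 8 gene lists on each array, as log2 signal minus each gene's mean over the 12 arrays, with the group mean as a line (control, control line; shRNA, shRNA-labelled line; 0 and dox, without and with doxycycline). The mitosis genes lay between -0.78 and -0.56 on the control arrays with doxycycline, below all other arrays, and the liver-type plasma proteins between -0.87 and -0.44 on the shRNA arrays with doxycycline.

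Genes that LRH-1 is reported in the literature to regulate were divided. Of 12 tested, 4 were called higher and 4 lower, with a median of -0.04, which is 66.7% called against 22.6% of all genes. Before doxycycline 4 were called higher and 2 lower, with a median of -0.05, where 16.3% of all genes were called. CCNE1, cyclin E1 of the G1/S transition, read 9.35, 9.33 and 9.39 on the control arrays and 10.57, 10.27 and 10.61 on the shRNA arrays, a difference of 1.13 (SE 0.12, adjusted p = 5.3e-05). MYC read 12.81, 13.07 and 13.02 against 13.78, 13.65 and 13.73 (difference 0.75, SE 0.09, adjusted p = 0.000194). For CCNE1 and MYC, reported as genes that LRH-1 activates, all shRNA arrays lay above all control arrays.

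Lower LRH-1 target genes were DIO1, the deiodinase that activates thyroid hormone, and SLC10A1, the bile acid uptake transporter of hepatocytes. DIO1 read 11.62, 11.54 and 11.67 on the control arrays and 10.42, 9.59 and 10.63 on the shRNA arrays (difference -1.40, SE 0.21, adjusted p = 0.000665). SLC10A1 read 12.63, 12.37 and 12.80 against 11.15, 10.09 and 11.70 (difference -1.62, SE 0.30, adjusted p = 0.00263). In DIO1 and SLC10A1 shRNA array 2 lay well below its replicates. SCARB1, the receptor for high-density lipoprotein, differed by -0.53 (adjusted p = 0.0374), a call lost in 9 of 24 alternatives (adjusted p up to 0.142), among them those without any control array, shRNA array 1 or 2 or untreated shRNA array 3. The count of lower LRH-1 target genes was 2 in place of 4 without control array 1 or 3, shRNA array 1 or 2, or untreated shRNA array 3. It was also 2 with median scaling.

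Most plasma proteins made mainly by the liver were lower. Of 26 tested, 17 were called lower and 0 higher, with a median of -0.80 (65.4% called against 22.6% of all genes). Before doxycycline 8 were lower, at a median of -0.41, against 8.87% lower among all genes. Their mean by array was 0.40, 0.40 and 0.49 on the control arrays and -0.54, -0.87 and -0.44 on the shRNA arrays, with shRNA array 2 the lowest. Besides SERPINA5 and HPX, SERPINA6, the globulin that carries cortisol, read 9.11, 9.15 and 9.29 against 6.79, 6.71 and 6.85, a 5.28-fold difference (log2 -2.40, SE 0.15, adjusted p = 1.96e-06).

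The promoter of SERPIND1, heparin cofactor II, is shown because it was the only one of the 12 matched promoters of lower plasma protein genes to hold CAAGGTCA, the type of sequence LRH-1 is known to bind. Capitals mark it as its reverse complement. SERPIND1 was chosen after its values were seen. It lies at chr22:20773863-20774112 (GRCh38.p14, plus strand, RefSeq).
SERPIND1: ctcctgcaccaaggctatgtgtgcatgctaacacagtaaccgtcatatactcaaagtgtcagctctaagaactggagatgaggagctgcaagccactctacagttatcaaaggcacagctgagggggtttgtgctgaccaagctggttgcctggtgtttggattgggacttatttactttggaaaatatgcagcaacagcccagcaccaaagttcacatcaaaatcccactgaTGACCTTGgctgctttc
SERPIND1 read 7.79, 8.19 and 7.92 on the control arrays and 6.60, 6.33 and 5.93 on the shRNA arrays, a difference of -1.68 (SE 0.25, adjusted p = 0.000657), with detection on 1 of 3 shRNA arrays. CAAGGTCA, searched on both strands, stood in 7 of 1051 promoters of genes called higher (0.666%) and in 10 of 1192 of genes called lower (0.839%). The share was 0.799% among all genes tested and 1.17% among all promoters, and 0 of the 8 matched LRH-1 target genes held it in this window.

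Most complement genes tested were lower as well, and some lipoprotein genes were. Of 13 complement genes tested, 8 were called lower and 1 higher, with a median of -0.71 (69.2% called against 22.6% of all genes). CFB, factor B of the alternative pathway, was 3.44-fold lower (log2 -1.78, adjusted p = 2.4e-05) and C3, the central component, 2.95-fold (-1.56, adjusted p = 9.6e-05). CD59, which protects cells from the membrane attack complex, was the higher member, at 0.32 (adjusted p = 0.0397), and its call was lost in 10 of 24 alternatives (adjusted p up to 0.323), among them those without control array 1 or 2, shRNA array 1 or 2, untreated control array 2 or untreated shRNA array 3.

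Of 16 apolipoprotein and lipoprotein assembly genes, 6 were called lower and 1 higher, with a median of -0.28. That is 43.8% called, against 22.6% of all genes. APOH, beta-2-glycoprotein I, read 14.16, 13.85 and 14.03 on the control arrays and 12.76, 12.67 and 12.68 on the shRNA arrays, a difference of -1.31 (SE 0.11, adjusted p = 1.39e-05). APOA4, secreted with chylomicrons, was lower, by a difference of -1.97 and APOC3, an inhibitor of lipoprotein lipase, by -1.46 (adjusted p = 2.56e-05 and 0.000381). MTTP, the microsomal protein that loads lipid onto apolipoprotein B, went the other way and was at least 2.43-fold higher, undetected on all control arrays.

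Enzymes of drug and xenobiotic metabolism were mostly lower. Of 31 tested, 16 were called lower and 3 higher, with a median of -0.63 (61.3% called against 22.6% of all genes). Before doxycycline 12 were lower and 3 higher, where 16.3% of all genes were called. UGT2B17, which glucuronidates steroids, read 9.87, 9.94 and 10.14 on the control arrays and 7.47, 6.96 and 7.70 on the shRNA arrays (difference -2.61, SE 0.18, adjusted p = 3.35e-06). UGT2B15 and UGT1A6 were undetected on all shRNA arrays and at least 3.40-fold and 1.86-fold lower. These glucuronosyltransferases belong to families with close relatives, so their probes may read more than 1 of them. Higher members were the epoxygenase CYP2J2 (1.52, adjusted p = 0.00028), CYP1B1 (1.47, adjusted p = 0.000573) and the sulfotransferase SULT2B1 (1.03, adjusted p = 0.011). CYP1B1 was detected on 2 of 3 control arrays and SULT2B1 on 1 of 3.

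Targets of NRF2, the regulator of the antioxidant response, were lower in 9 of 18 and higher in 0, with a median of -0.38. That is 50% called, against 22.6% of all genes. AKR1C2, an aldo-keto reductase of steroids and xenobiotics, read 13.97, 13.70 and 13.94 on the control arrays and 11.62, 10.88 and 11.65 on the shRNA arrays, 5.61-fold lower (SE 0.19 on the log2 scale, adjusted p = 5.39e-06). The related AKR1C3 and AKR1B10 were lower, by differences of -1.41 and -1.34 (adjusted p = 0.000106 and 0.000816), and AKR1C probes can bind each other's transcripts. Median scaling left 5 of the 9 NRF2 calls.

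Among 13 steroid enzymes, 3 were lower and 1 higher, with a median of -0.07 (30.8% called against 22.6% of all genes). HSD3B1, which makes delta-4 steroids, was lower, by a difference of -1.59 (SE 0.14, adjusted p = 1.39e-05), HSD17B14 by -1.03 (adjusted p = 0.000226) and HSD17B2 by -0.61 (adjusted p = 0.00432). HSD11B2, which inactivates cortisol, was higher by 0.70 (adjusted p = 0.00265).

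Bile acid and efflux transporters moved in both directions, with 6 of 15 lower, 2 higher and a median of -0.20. That is 53.3% called, against 22.6% of all genes. SLC51A, one chain of the basolateral bile acid exporter, read 6.41, 6.66 and 6.35 on the control arrays and 9.20, 9.33 and 9.06 on the shRNA arrays. FGF19, the hormone by which the ileum restrains bile acid synthesis, was higher by 1.36 (SE 0.20, adjusted p = 0.00058). ABCC3, an export pump, was lower, by a difference of -0.90 (adjusted p = 0.000295). FABP6, the ileal bile acid binding protein, was detected on 1 of 3 control arrays and 0 shRNA arrays, and its bound was 1.03-fold. The count of lower transporters was 3 in place of 6 without shRNA array 1 or 2.

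Markers of the absorptive surface were lower where they differed. Of 7 brush border hydrolases, 3 were called lower and 0 higher (median -0.15), and of 15 microvillus genes 6 and 0 (median -0.25). These are 42.9% and 40% of members, against 22.6% of all genes. ALPI, intestinal alkaline phosphatase, was 2.54-fold lower (log2 -1.35, SE 0.12, adjusted p = 2.29e-05), and SI, sucrase-isomaltase, 1.89-fold (-0.92, adjusted p = 0.00237). LCT, lactase, differed by -0.62 (adjusted p = 0.0335), a call lost in 5 of 24 alternatives (adjusted p up to 0.113), among them those without control array 1 or 3 or shRNA array 1 or 2. CDHR5, an intermicrovillar cadherin, was lower, by a difference of -1.46 (adjusted p = 0.000132), and the scaffold proteins PDZK1 and USH1C by -0.98 each (adjusted p = 0.000799 and 0.000877). Without shRNA array 1, or with median scaling, the microvillus count was 3 in place of 6.

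Of 16 uptake transporters, 2 were lower and 1 higher, with a median of -0.29 (18.8% called against 22.6% of all genes). The lower count was 6 with no background correction or with array weights, and 4 with normexp without inferred controls or with trended robust variance. SLC3A1, a subunit of the cystine transporter, was lower, by a difference of -0.67 (adjusted p = 0.00285). SLC10A2, the ileal bile acid transporter, was at least 1.25-fold lower (adjusted p = 0.0193) and SLC15A1, the peptide transporter, at least 1.37-fold higher (adjusted p = 0.0325). The SLC10A2 call was lost without control array 2 (adjusted p = 0.0718) or shRNA array 1 (0.079) or 2 (0.0662), and the SLC15A1 call without any control array or shRNA array 1 or 2 (0.062 to 0.109). The SLC15A1 call was also lost with no background correction (0.0561) and in a fit of the compared groups alone (0.0642).

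The lists of secretory lineage genes were short, and 50% of goblet, 40% of Paneth and 33.3% of enteroendocrine genes were called, against 22.6% of all genes. Of 12 goblet cell and mucin genes, 5 were lower and 1 higher (median -0.16). The trefoil peptides TFF2 and TFF3 were lower, by differences of -0.89 and -0.47 (adjusted p = 0.000103 and 0.00339) and the membrane mucin MUC13 by -0.64 (adjusted p = 0.00824), while ZG16, a lectin of goblet cell granules, was higher by 1.04 (adjusted p = 0.0108). Without control array 2 or 3, or with median scaling, the lower count was 3 in place of 5. Of 5 Paneth cell genes, PLA2G2A, a secreted phospholipase, and PRSS2, a trypsinogen with close relatives, were lower, by differences of -1.06 and -0.77 (adjusted p = 0.00211 and 0.00769), although the list's median was 0.30. Of 6 enteroendocrine genes, CHGB, chromogranin B, was higher by 0.96 (adjusted p = 0.00213) and SCG5 lower, by a difference of -1.43 (adjusted p = 3.51e-05).

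**Figure D3:**
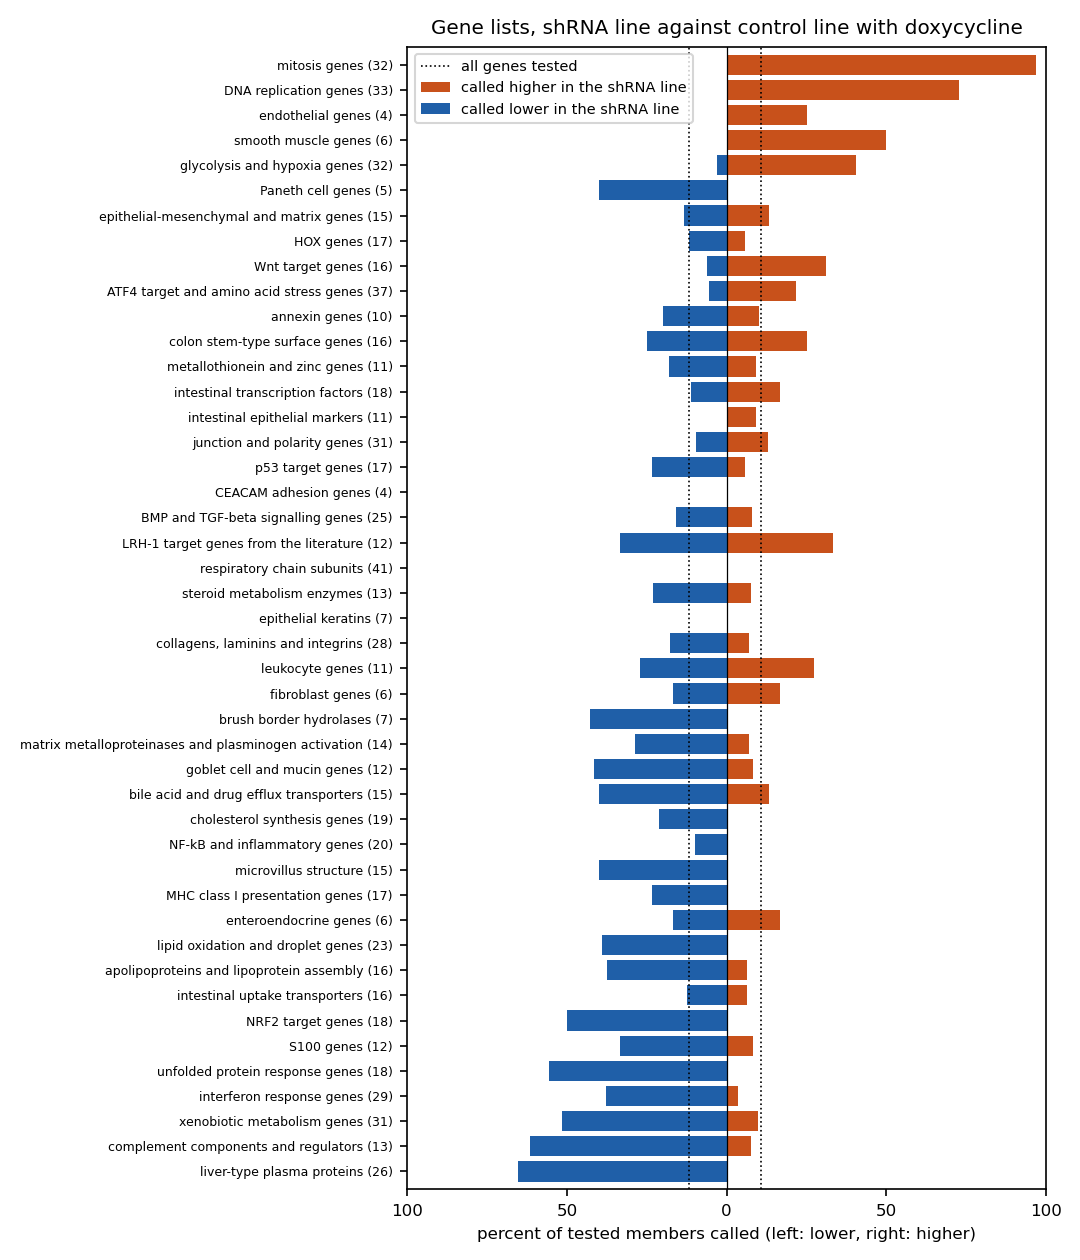
Percent of tested members of each of 45 gene lists called higher (right) or lower (left) in the shRNA-labelled line under doxycycline, with the number tested in brackets and the share over all genes as dotted lines (10.9% higher, 11.8% lower). Lists are ordered by their median difference. Mitosis and DNA replication genes lie at the higher end and liver-type plasma proteins and complement genes at the lower end.

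Interferon response genes that were called lay mostly on the lower side, under doxycycline and before it. Of 29 tested, 11 were called lower and 1 higher, with a median of -0.53 (41.4% called against 22.6% of all genes). Before doxycycline 15 were lower and 0 higher, with a median of -0.44, where 16.3% of all genes were called. IFIT1, which binds foreign RNA caps, read 9.57, 9.29 and 9.38 on the control arrays and 7.12, 6.82 and 7.52 on the shRNA arrays, a lower value (log2 difference -2.26, SE 0.19, adjusted p = 1.38e-05). MX1, an antiviral GTPase, read 9.68, 9.81 and 10.01 against 8.29, 8.28 and 8.37, 2.86-fold lower (log2 -1.52, SE 0.12, adjusted p = 1.06e-05). For IFIT1 and MX1 the control arrays with doxycycline were the high group, above the untreated arrays of the same line. IFI35 was lower, by a difference of -0.97 (adjusted p = 4.5e-05). XAF1 was the higher member, at 0.55 (adjusted p = 0.0366), a call lost in 7 of 24 alternatives (adjusted p up to 0.133), among them those without control array 2 or 3 or shRNA array 1 or 2.

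The IFIT1 promoter is shown for its interferon-stimulated response element, searched as a pair of GAAA runs with any 2 bases between them, which is known to bind the complex of STAT proteins and IRF9. It lies at chr10:89392373-89392622 (GRCh38.p14, plus strand, RefSeq), and capitals mark 2 matches, both as the reverse complement.
IFIT1: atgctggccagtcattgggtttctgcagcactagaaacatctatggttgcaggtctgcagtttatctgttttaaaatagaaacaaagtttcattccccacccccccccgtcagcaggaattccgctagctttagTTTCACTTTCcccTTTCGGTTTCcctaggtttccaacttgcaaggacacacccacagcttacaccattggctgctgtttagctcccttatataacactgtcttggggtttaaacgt
Searched on both strands, the motif stood in 5 of 10 matched promoters of the lower interferon genes (IFI6, IFIT1, IFIT3, ISG15 and SAMD9), in 2.38% of genes tested and in 3.07% of all promoters.

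Of 17 MHC class I genes, 4 were lower and 0 higher, with a median of -0.25 (23.5% called against 22.6% of all genes). HLA-E and TAPBP, the peptide-loading protein tapasin, were lower, by differences of -0.58 and -0.65 (adjusted p = 0.00402 and 0.00416). The further TAPBP probe ILMN_1773031 gave -0.29 (adjusted p = 0.161 over probes). HLA-F differed by -0.58 on its brightest probe (adjusted p = 0.0033), but probe ILMN_1762861 of the same gene gave 0.39, and HLA genes are close relatives of each other. B2M, the invariant light chain, differed by -0.68 (adjusted p = 0.0292). Its call was lost without any control array, without shRNA array 2 or in a fit of the compared groups alone (adjusted p = 0.0516 to 0.0858). Of 20 NF-kB and inflammatory genes, 2 were lower and 0 higher, with a median of -0.21 (10% called, a smaller share than among all genes). These were LTB, lymphotoxin beta, 2.83-fold (adjusted p = 0.000989) and the NF-kB inhibitor NFKBIE, 1.49-fold (adjusted p = 0.00612), with LTB detected on 1 of 3 shRNA arrays.

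Targets of ATF4, the factor of the amino acid stress response, were called about as often as other genes under doxycycline and more often without it. Under doxycycline 8 of 37 were called higher and 2 lower, which is 27% against 22.6% of all genes, with a median of 0.10. Before it 0 were higher and 17 lower, at a median of -0.37, against 7.46% higher and 8.87% lower among all genes in that comparison. The difference of these line differences was called for 5 members, all higher, against 0.844% of all genes.

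DDIT4, an inhibitor of mTORC1, read 10.43, 10.56 and 10.27 on the control arrays and 12.47, 12.38 and 12.57 on the shRNA arrays, 4.16-fold higher (log2 2.06, SE 0.13, adjusted p = 2.43e-06). On the untreated arrays it read 13.04, 13.28 and 13.08 in the control line and 12.71, 12.24 and 12.63 in the shRNA-labelled line. DDIT4 was thus low only on the 3 control arrays with doxycycline among these 12 and the shRNA-labelled line lay between 12.24 and 12.71 on all 6 of its arrays. MTHFD2, of mitochondrial folate metabolism, was higher by 1.00 (adjusted p = 0.00147) and PSAT1, of serine synthesis, by 0.82 (adjusted p = 0.00105). SLC3A2, a chain of amino acid exchangers, and DDIT3, the stress factor CHOP, differed by -0.43 and -0.42 (adjusted p = 0.0101 and 0.0444). The DDIT3 call was lost in 13 of 24 alternatives (adjusted p up to 0.154), among them those without any control array, shRNA array 2 or 3, any untreated control array or untreated shRNA array 3, and that of SLC3A2 with median scaling (0.0993) or the mean of its probes (0.0949). Without control array 3 or with median scaling the count of higher members was 5 in place of 8, and the count of lower members was 1 in place of 2 without control array 2 or 3, shRNA array 2 or 3, any untreated control array or untreated shRNA array 3. The lower count was also 1 with median scaling, no detection filter or a fit of the compared groups alone.

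ASNS, asparagine synthetase, is shown as the gene of this group whose 250-base promoter held the ATF4 element TGATGNAA, and was chosen after its values were seen. It lies at chr7:97872409-97872658 (GRCh38.p14, minus strand, RefSeq), and capitals mark the element.
ASNS: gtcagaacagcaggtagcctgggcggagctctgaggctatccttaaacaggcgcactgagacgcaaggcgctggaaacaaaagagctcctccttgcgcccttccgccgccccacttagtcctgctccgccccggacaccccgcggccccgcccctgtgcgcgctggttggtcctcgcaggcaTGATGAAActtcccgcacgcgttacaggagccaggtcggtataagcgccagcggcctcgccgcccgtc
ASNS read 11.26, 11.80 and 11.32 on the control arrays and 12.26, 12.38 and 12.15 on the shRNA arrays, a difference of 0.80 (SE 0.14, adjusted p = 0.00164). On untreated arrays it was higher in both lines, at 13.92, 13.86 and 13.97 in the control line and 13.23, 13.06 and 13.30 in the shRNA-labelled line. The element, searched on both strands, stood in 1 of 8 promoters of the higher ATF4 targets (12.5%), in 1.58% of genes tested and in 3.19% of all promoters.

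Chaperones of the endoplasmic reticulum were lower where called. Of 18 unfolded protein response genes, 10 were lower and 0 higher, with a median of -0.42 (55.6% called against 22.6% of all genes). SEL1L, of the degradation channel, and SDF2L1, a chaperone partner, were each lower, by a difference of -0.52 (adjusted p = 0.00219 and 0.00339), and the co-chaperone DNAJC3 by -0.72 (adjusted p = 0.00286). The SEL1L call was lost with median scaling (0.0648). The lower count was 6 without control array 1 or 3, without shRNA array 1 or in a fit of the compared groups alone. It was 4 with median scaling.

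Lipid genes were lower where called. Of 23 lipid oxidation and droplet genes, 9 were lower and 0 higher, with a median of -0.26 (39.1% called against 22.6% of all genes). CYP4F3, a fatty acid omega-hydroxylase, was 4.65-fold lower (log2 -2.22, SE 0.32, adjusted p = 0.000506), CIDEB, a droplet protein, 2.01-fold (-1.01, adjusted p = 0.000375) and its relative CIDEC 1.48-fold (-0.57, adjusted p = 0.00148). Of 19 cholesterol synthesis genes, 4 were lower and 0 higher, with a median of -0.21. The 21.1% called was about the share among all genes. Before doxycycline 0 of the cholesterol synthesis genes were lower and 3 higher, with a median of 0.32, where 16.3% of all genes were called. TM7SF2, a sterol reductase, was lower, by a difference of -0.79 (adjusted p = 0.00452). MVD, EBP and INSIG1 differed by -0.58, -0.62 and -0.35 (adjusted p = 0.0263, 0.0489 and 0.0386). Their calls were lost in 5, 11 and 11 of 24 alternatives (adjusted p up to 0.0892, 0.175 and 0.21). The further INSIG1 probe ILMN_1686989 gave -0.16 (adjusted p = 0.616 over probes). The count of 4 became 1 without control array 1 or 3 or shRNA array 1 or 2, and 2 without control array 2, untreated control array 1 or untreated shRNA array 3. It was also 2 with no detection filter or in a fit of the compared groups alone.

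Genes of glycolysis and hypoxia were higher in 13 of 32 and lower in 1, with a median of 0.30. That is 43.8% called, against 22.6% of all genes. ANKRD37, a target of the hypoxia-inducible factor, was 2.41-fold higher (log2 1.27, SE 0.14, adjusted p = 8.15e-05), the hexokinase HK2 2.00-fold (1.00, adjusted p = 0.000257) and BNIP3, a mitophagy receptor, 1.85-fold (0.89, adjusted p = 0.000581). ADM, adrenomedullin, was lower, by a difference of -0.72 (adjusted p = 0.000516). Of 41 nuclear-encoded respiratory chain subunits, 0 were called in either direction by limma and 0 had an unadjusted p under 0.05, with a median of -0.06. With array weights 1 subunit was called lower. Of 17 p53 target genes, 4 were lower and 1 higher, with a median of -0.02 (29.4% called against 22.6% of all genes). TP53INP1 was lower, by a difference of -1.01 (adjusted p = 0.000446), TIGAR by -0.53 (adjusted p = 0.00944) and the cell cycle inhibitor CDKN1A by -0.57 (adjusted p = 0.0268), while the death receptor TNFRSF10B differed by 0.30 (adjusted p = 0.0476). The TNFRSF10B call was lost in 14 of 24 alternatives (adjusted p up to 0.41), among them those without any control array, shRNA array 1 or 2, untreated control array 2 or 3 or untreated shRNA array 1 or 3, and its further probes gave 0.17 and 0.23 (adjusted p = 0.694 and 0.423 over probes). The CDKN1A call was lost without control array 3 (0.0997) or shRNA array 1 (0.0599) or 2 (0.0876), and the TIGAR call with median scaling (0.0638). Without shRNA array 2, 2 of these 4 lower calls were made.

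Among matrix and motility genes the differences went in both directions. Of 15 epithelial-mesenchymal and matrix genes, 2 were higher and 2 lower (26.7% called against 22.6% of all genes, median 0.18). ITGA5, the fibronectin receptor chain, was higher by 1.38 (SE 0.13, adjusted p = 3.14e-05) and TAGLN, transgelin, by 1.33 (adjusted p = 0.00148). LOXL4 differed by -0.56 (adjusted p = 0.00482) and S100A4 by -0.68 (adjusted p = 0.0151), the latter lost without control array 3 (0.0521) or shRNA array 2 (0.0545). Of 14 metalloproteinase and plasminogen genes, 4 were lower and 1 higher (35.7% called against 22.6% of all genes, median -0.16). Before doxycycline 7 were lower and 0 higher (median -0.67), where 16.3% of all genes were called. MMP11 was 3.78-fold lower (log2 -1.92, adjusted p = 3.45e-06), MMP10 4.13-fold (-2.05, adjusted p = 0.00108) and the inhibitor TIMP2 1.48-fold (-0.57, adjusted p = 0.00314). SERPINE2, a protease inhibitor, was higher by 1.01 (adjusted p = 0.00191).

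Of 28 collagens, laminins and integrins, 5 were lower and 2 higher (25% called against 22.6% of all genes, median -0.12). The laminin chains LAMB2 and LAMB3 were lower, by differences of -1.11 and -0.79 (adjusted p = 6.39e-05 and 0.00225) and COL5A2 by -0.52 (adjusted p = 0.00417). The further LAMB3 probe ILMN_1680054 gave -0.17 (adjusted p = 0.759 over probes). COL5A1 differed by 0.57 (adjusted p = 0.012), a call lost without control array 3 (0.0519) or with median scaling (0.0797). Of 31 junction and polarity genes, 4 were higher and 3 lower (22.6% called, the same share as among all genes, median 0.01). CTNND1, p120-catenin, was higher by 1.74 (adjusted p = 2.26e-05) on its brightest probe and differed by -0.14 on probe ILMN_1696806, and CLDN2, a pore-forming claudin, was higher by 1.35 (adjusted p = 0.000371). The connexins GJB2 and GJB1 were lower, by differences of -0.91 and -0.90 and MARVELD3 by -0.58 (adjusted p = 0.000456, 0.00636 and 0.00229). DSG2 differed by 0.55 (adjusted p = 0.0198), a call lost without control array 1 or 3 or shRNA array 1 or 2 (0.0502 to 0.0786). It was also lost with median scaling (0.105) and in a fit of the compared groups alone (0.0631). Without control array 3 or shRNA array 1 or 2, with median scaling or in that fit, the higher count was 2 in place of 4.

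Of 7 epithelial keratins and 4 CEACAM genes tested, 0 were called in either direction by limma under doxycycline, with medians of -0.11 and -0.03, and 3 keratins and 1 CEACAM gene had an unadjusted p under 0.05. Over the alternatives, up to 1 keratin was called higher and up to 1 lower, and up to 1 CEACAM gene was called higher. With the authors' deposited values or median scaling 1 keratin was called higher. Of 12 S100 genes, 4 were lower and 1 higher (41.7% called against 22.6% of all genes, median -0.39). S100A1 was lower, by a difference of -1.00 (adjusted p = 0.000693) and S100P by -0.48 (adjusted p = 0.00846), and S100G, calbindin-D9k, was 2.82-fold higher (adjusted p = 0.00636) with detection on 1 of 3 control arrays. The S100P call was lost with median scaling (0.0796). Without control array 3 or shRNA array 2, or with median scaling, the lower count was 2 in place of 4. Of 10 annexins, ANXA9 and ANXA13 were lower, by differences of -1.57 and -0.77 and ANXA4 higher by 0.71 (adjusted p = 0.00127, 0.00184 and 0.00987). The called share was 30% of the annexins and 27.3% of 11 metallothionein and zinc genes, against 22.6% of all genes. Of the latter list, the transporter SLC30A2 was lower, by a difference of -1.75 (adjusted p = 1.13e-05). SLC30A1 and MT2A differed by -0.49 and 0.93 (adjusted p = 0.0285 and 0.0142). The SLC30A1 call was lost without any control array or shRNA array 1 or 2 (0.0544 to 0.107), or with median scaling (0.148). The MT2A call was lost without control array 3 (0.0602) or shRNA array 1 (0.0604).

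Wnt target genes were higher in 5 of 16 and lower in 1, with a median of 0.10 (37.5% called against 22.6% of all genes). Besides MYC, NKD2, a feedback inhibitor, was higher by 1.33 (SE 0.14, adjusted p = 5.32e-05) and the transcription factor LEF1 by 0.67 (adjusted p = 0.0014). LGR5, the crypt stem cell receptor, was undetected on all shRNA arrays and at least 1.47-fold lower (adjusted p = 0.0116). Of 16 colon stem-type surface genes, 4 were higher and 4 lower (50% called against 22.6% of all genes, median 0.05). CD24 read 13.75, 13.80 and 13.67 on the control arrays and 11.87, 11.81 and 11.96 on the shRNA arrays, 3.63-fold lower (log2 -1.86, SE 0.09, adjusted p = 3.29e-07). LRIG1 was higher by 0.73 (adjusted p = 0.000237) and CD44 by 0.83 (adjusted p = 0.00505), with -0.05 on the further CD44 probe ILMN_1778625. ALDH1A1 and ALDH1B1 differed by -0.59 and 0.54 (adjusted p = 0.00636 and 0.0189). The further ALDH1A1 probe ILMN_2096372 gave -0.13 (adjusted p = 0.801 over probes), and the ALDH1A1 call was lost with the mean of its probes (0.0725). The ALDH1B1 call was lost without control array 1 (0.0563) or shRNA array 2 (0.0711), or with median scaling (0.133). Without either of these arrays, or with median scaling, the higher count was 2 in place of 4.

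Among 18 intestinal transcription factors, 3 were higher and 2 lower (27.8% called against 22.6% of all genes, median 0.02). KLF4, a factor of differentiated epithelium, was higher by 1.37 (SE 0.16, adjusted p = 0.000129) and HES1, the Notch effector, by 0.51 (adjusted p = 0.00255), while CREB3L3 was lower, by a difference of -0.66 (adjusted p = 0.00815). The HES1 call was lost with median scaling (0.101). PPARG differed by 0.39 (adjusted p = 0.0385) and MAF by -0.68 (adjusted p = 0.0351), and these calls were lost in 8 and 6 of 24 alternatives (adjusted p up to 0.188 and 0.131), PPARG's without any of the 6 arrays and MAF's without any control array or shRNA array 1 or 3. Of 17 HOX genes 17.6% were called, a smaller share than among all genes. HOXB8 was higher by 2.08 (adjusted p = 0.000434), with detection on 1 of 3 control arrays. HOXC11 and HOXC13 were lower, by differences of -0.75 and -0.47 (adjusted p = 0.0116 and 0.00776). The HOXC13 call was lost with median scaling (0.101). Of 25 BMP and TGF-beta genes, 4 were lower and 2 higher (24% called against 22.6% of all genes, median -0.04). INHBB was lower, by a difference of -1.06, BAMBI by -0.64 and BMP4 by -1.21 (adjusted p = 5.32e-05, 0.00178 and 0.00447), with BMP4 detected on 1 of 3 shRNA arrays. TGFB3 and the BMP antagonist GREM1 differed by 0.59 and 0.87 (adjusted p = 0.0159 and 0.0317). The TGFB3 call was lost without control array 2 (0.062), with median scaling (0.0658) or with no background correction (0.0621). The GREM1 call was lost without control array 1 or 2 or any shRNA array (0.0516 to 0.116).

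Defining markers of intestinal epithelium were present on all arrays. Of 13, 11 were tested, CDX1 was never detected and HNF4A was not tested, and the mean log2 signal of the 11 was 12.00 to 12.14 on the control arrays and 12.17 to 12.33 on the shRNA arrays. Only GPA33, a surface antigen of colon cells, was called, at 0.69 (adjusted p = 0.0148), and not without control array 1 (0.057) or shRNA array 2 (0.059). The count of higher markers was 2 with, among others, no background correction, median scaling or the authors' deposited values. Markers of other cell types were detected in part. Of the members with a probe, 6 of 11 fibroblast, 4 of 11 endothelial, 11 of 16 leukocyte and 6 of 12 smooth muscle genes were tested, and the mean log2 signal of the tested members lay at 9.94 to 10.11, 7.12 to 7.70, 8.95 to 9.20 and 10.48 to 11.54 on the arrays with doxycycline. The leukocyte markers PTPRC and TYROBP, the endothelial markers CDH5 and VWF, the fibroblast markers COL1A2, FAP and THY1 and the smooth muscle markers DES and MYH11 were never detected. Counts of called members were 1 higher and 1 lower of 6 fibroblast genes, 1 higher of 4 endothelial genes, and 3 higher and 3 lower of 11 leukocyte genes. These are 33.3%, 25% and 54.5% of members, against 22.6% of all genes.

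Of 6 smooth muscle genes tested, 3 were higher and 0 lower, with a median of 0.44 (50% called against 22.6% of all genes). Their mean signal was 10.48 to 10.78 on the control arrays and 11.07 to 11.54 on the shRNA arrays. ACTG2, enteric actin, was detected on 1 of 3 control arrays and higher by 1.87 (adjusted p = 0.000993), and MYL9, a myosin light chain, differed by 0.62 (adjusted p = 0.0386), a call lost in 10 of 24 alternatives (adjusted p up to 0.121), among them those without any control array, shRNA array 2, untreated control array 1 or untreated shRNA array 3. Individual members of the other lists that were called include PDGFRA (1.65, adjusted p = 3.27e-05) and LUM (-1.19, adjusted p = 0.00107). Among leukocyte genes, CD3D was at least 3.62-fold lower (adjusted p = 6.87e-06), CSF1R lower, by a difference of -0.93 (adjusted p = 0.000565), CD68 by -0.36 (adjusted p = 0.0122), FCER1G higher by 0.93 (adjusted p = 0.00366), SKAP1 by 1.25 (adjusted p = 0.00891) and CD2 by 0.99 (adjusted p = 0.00872). The CD68 call was lost without control array 3 (0.0507) or with median scaling (0.149). EGFL7 differed by 0.36 (adjusted p = 0.0352), a call lost in 13 of 24 alternatives (adjusted p up to 0.286), among them those without control array 2 or 3 or any shRNA array.

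The design also holds the same lines without doxycycline, which shows how much of the difference was also seen on untreated arrays. These are separate samples without a recorded harvest time. Without doxycycline 2052 genes (16.3%) were called, 938 higher and 1114 lower, on arrays that the comparison under doxycycline does not share. Of the genes called under doxycycline, 2534 of 2846 had the same sign before it, and 1171 were called with the same sign in both, which is 41.1% of those under and 57.1% of those before doxycycline. Another 18 were called with opposite signs. Over the 12566 genes the line differences with and without doxycycline correlated at r = 0.655, and genes are not independent replicates. OCIAD2 is an example of a difference of similar size in both (2.78 and 2.66), and CD24 (-1.86 and -1.60) is another.

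The difference of the line differences, which tests whether the lines differed otherwise with the drug than without it, was called for 106 genes (0.844%), 58 higher (0.462%) and 48 lower (0.382%). Of the 1657 genes called under doxycycline and not before, 45 had this difference called and 1612 did not, so for most of these the separate calls do not show that the drug altered the line difference. Leaving out 1 array moved the 106 calls to between 15 (without control array 3) and 206 (without shRNA array 3).

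**Figure D4:**
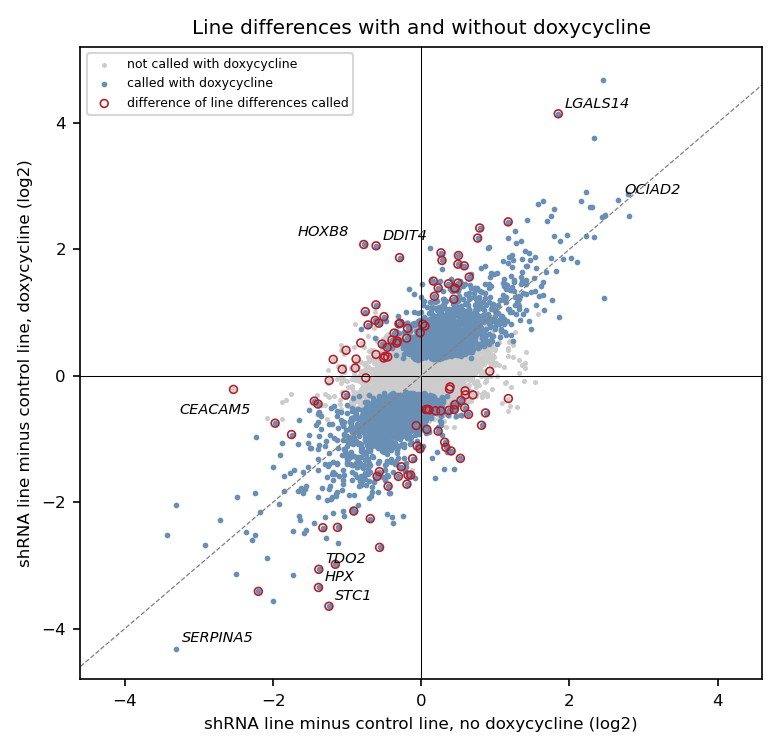
Line difference (shRNA-labelled minus control, log2) of each of 12566 genes without doxycycline (x) and with it (y), with the line of equality dashed. Called genes under doxycycline are blue, and red rings mark the 106 genes whose difference of line differences was called. SERPINA5 and OCIAD2 lie far from 0 on both axes, DDIT4 and HOXB8 are high with doxycycline only, and CEACAM5 is low without it only.

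HOXB8, a HOX factor of the posterior body axis, had different line differences with and without doxycycline. It read 5.86, 6.78 and 5.55 on the control arrays and between 7.88 and 8.55 on the shRNA arrays, but 6.61, 7.16 and 6.64 and 5.78, 6.23 and 6.08 on the untreated arrays of the control and the shRNA-labelled line. The difference of differences was 2.85 (adjusted p = 0.0151), although the untreated shRNA arrays were all undetected, and its size ranged from 1.04 with no background correction to 3.21 over the alternatives. Without untreated shRNA array 1 it was not called (0.0526). DDIT4 had a difference of differences of 2.66 (adjusted p = 0.000159), a call kept under all 23 alternatives. CEACAM5, carcinoembryonic antigen, was not called under doxycycline (-0.22, SE 0.25, adjusted p = 0.572), where the arrays read 10.87, 11.13 and 10.86 in the control line and 10.49, 11.16 and 10.55 in the shRNA-labelled line. Without doxycycline CEACAM5 was lower, by a difference of -2.53 (adjusted p = 7.09e-05), and the difference of differences was 2.32 (adjusted p = 0.0178), lost without untreated control array 2 (0.0566) or control array 1 (0.0507) or 3 (0.0628).

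Among the genes whose deficit in the shRNA-labelled line was larger with doxycycline, TDO2 (-3.06 against -1.38 without, difference -1.68, adjusted p = 0.00698) and GSTA5 (-2.98 against -1.16, difference -1.82, adjusted p = 0.00698) kept their call under all 23 alternatives. HPX, STC1 and LDHD had differences of -1.96, -2.40 and -2.15 (adjusted p = 0.0403, 0.0448 and 0.0478), lost in 10, 12 and 13 of 23 alternatives (adjusted p up to 0.101, 0.117 and 0.117). AFM, a vitamin E-binding plasma protein, was at least 1.83-fold lower under doxycycline and differed by 0.53 before it, with a difference of -1.84 (adjusted p = 0.0316) that was lost in 9 of 23 (up to 0.0987). Among the higher genes LGALS14 (2.29, adjusted p = 0.0316) was lost in 7 of 23, ACTG2 (2.16, adjusted p = 0.0446) in 10 of 22 and ULBP1, a ligand of the NKG2D receptor (1.77, adjusted p = 0.0446), in 12 of 23, with adjusted p up to 0.0987, 0.116 and 0.116. Each of these 7 calls was lost without control array 1 or 3, shRNA array 1 or 2, or any untreated shRNA array.

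**Figure D5:**
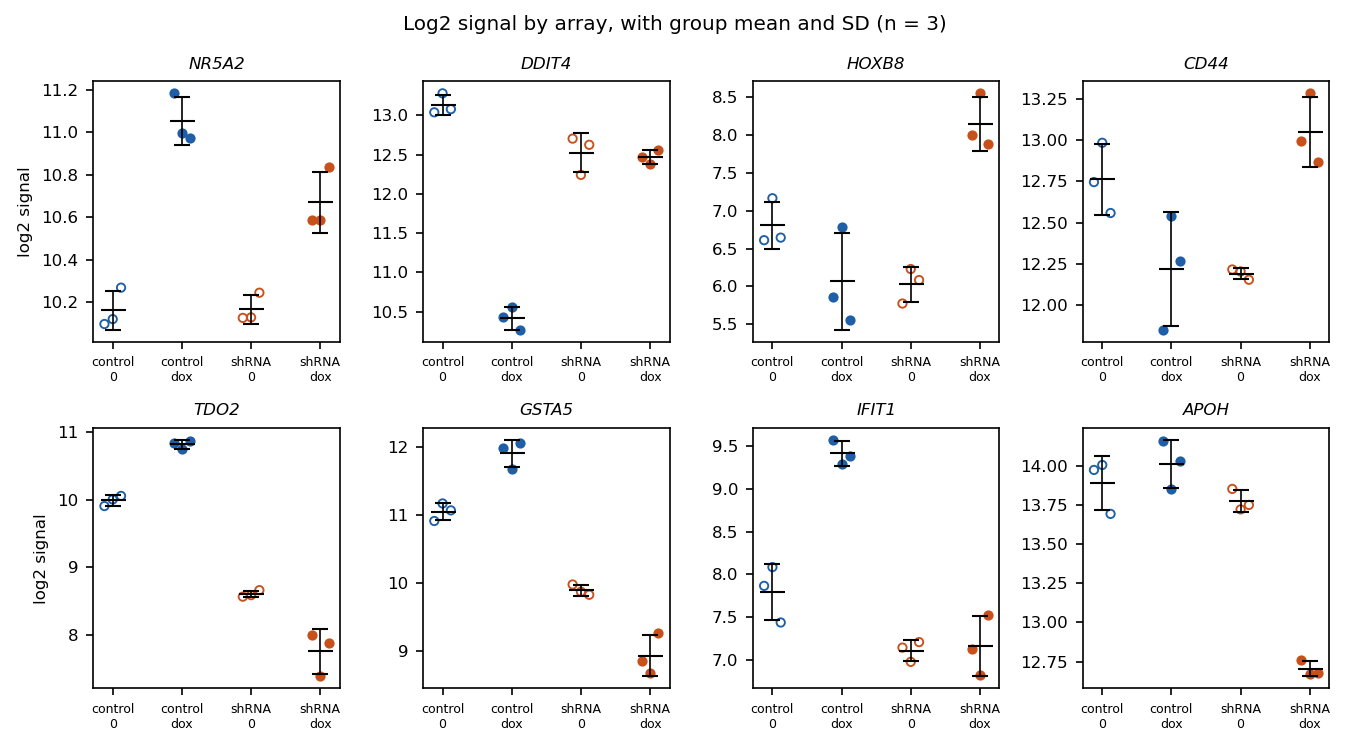
Log2 signal of 8 genes on each of the 12 arrays, with the group mean and SD (n = 3) as bars, for the control and the shRNA-labelled line without (0) and with (dox) doxycycline. DDIT4 was low, between 10.27 and 10.56, only on the control arrays with doxycycline, IFIT1 was high on the same arrays, and APOH was low, between 12.67 and 12.76, only on the shRNA arrays with doxycycline.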

How the data were processed

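Biotin-labelled cRNA of each sample was hybridised to an Illumina bead array, and all 12 arrays shared 1 chip, per the labels. Each column of the deposited table holds the average bead intensity of the probes of 1 array, linear and not normalized, and the next column its detection p-value, per the file headers. The submitters' processing notes name lumi and GenomeStudio without a version or role. The authors' deposited value table holds values close to log2, with a median of 6.64 in each column (read from the data). Its exact transformation is not given in the sources used here, and it served as an alternative only.

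Intensities were corrected with limma 3.58.1 in R 4.3.3 (normal-exponential model, negative controls inferred from the detection p-values, offset 16), taken to log2 and quantile-normalized. Of 47314 probes, 30109 had 1 gene symbol in the platform annotation, 8 several and 17197 none, and 30070 of the symbols matched RefSeq. The 22417 probes with a detection p under 0.05 on at least 3 of 12 arrays were kept, and 5682 without a single symbol entered no gene count. The brightest probe stood for each of 12566 genes, of which 3311 had further probes. For 780 called genes, 874 of 967 further probes had the same sign, and 0 were called in the opposite direction. The number of arrays limits the precision.

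A means model of 4 groups over all 12 arrays was fitted with lmFit and eBayes and was tested on simulated data. The 45 gene lists are described by counts and medians, without a set test. The members, lists, alternatives and named-gene rule were chosen with earlier results of these data known. Named genes are NR5A2, the 12 largest called differences each way without overlap of arrays, the 6 largest each way in the difference of line differences, and up to 3 called members of each list per direction by adjusted p, or every one where 4 or fewer were called. Uncharacterised loci, pseudogenes, antisense and Y-linked genes were left out. Promoters are RefSeq's and matched 10007 genes by gene identifier.

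Same-numbered arrays of the lines with doxycycline deviated together at r = -0.048, 0.0998 and 0.100, so the numbers were not taken as pairs. No pair of arrays held identical values. The processing was varied in turn: background correction, median scaling, use of the authors' values, detection filters, averaging of a gene's probes, fitting only the compared groups, a replicate block, weighting of arrays, a trended and robust variance, a fold limit of 1.5, and omission of each array.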

Additional observations from a re-analysis of the deposited data

Results flagged for a closer look

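A number of genes had a line difference under doxycycline that differed from the line difference without it, by limma's test of the difference itself. The processing was varied for this test in 12 of them, and 9 lost the call under at least 1 alternative. DDIT4, GSTA5 and TDO2 kept it throughout, and the remaining genes were not checked in this way. All values are the difference of the line differences on the log2 scale, with adjusted p from 0.000159 (DDIT4) to 0.0487 (ITGA5). On the higher side these were HOXB8 (2.85), DDIT4 (2.66), CEACAM5 (2.32), LGALS14 (2.29), ACTG2 (2.16), ULBP1 (1.77), FCER1G (1.44), CD44 (1.40), CTNND1 (1.16), PSAT1 (1.12) and ITGA5 (0.92). On the lower side were MX1 (-0.95), HSD3B1 (-1.00), APOH (-1.20), C1S (-1.21), CD3D (-1.23), SERPINA6 (-1.27), IFIT1 (-1.57), TDO2 (-1.68), GSTA5 (-1.82), AFM (-1.84), HPX (-1.96), LDHD (-2.15) and STC1 (-2.40).

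DDIT4 and CD44 were lower in the shRNA-labelled line without doxycycline (-0.61 and -0.57) and higher with it (2.06 and 0.83), each called both times. Under doxycycline the further CD44 probes ILMN_1778625 and ILMN_2348788 gave -0.05 and 1.02. The further CTNND1 probe ILMN_1696806 gave -0.14. CEACAM5 was called only without doxycycline. FCER1G and ULBP1 differed by -0.50 and -0.76 without doxycycline, neither called (adjusted p = 0.0849 and 0.0547). For APOH the lines differed by -0.12 without doxycycline (adjusted p = 0.523) and by -1.31 with it. C1S was undetected on all shRNA arrays with doxycycline, and CD3D on all arrays of the shRNA-labelled line, so their sizes depend on the background correction.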

How the results depend on the processing

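The count of 2846 genes stayed within 1.5 times under 11 of the 13 alternatives that left out no array, and was 1670 (705 higher, 965 lower, 42.2% higher against 48.0%) with median scaling and 1640 with at least 1.5-fold. Of the 1670 genes, 1634 were among the 2846. Leaving out 1 array gave 2099 to 2912 (977 to 1401 higher, 1096 to 1511 lower). The 2052 genes before doxycycline became 984 with median scaling, 3370 with array weights, and 1136 (without untreated control array 1) to 2165 without 1 array. The 106 differences of line differences became 318 with no background correction, 207 with normexp without inferred controls, 57 with median scaling, 43 with no detection filter, 527 with array weights, 299 with trended robust variance, and 15 to 206 without 1 array. NR5A2 kept its sign throughout, at -0.42 with median scaling (adjusted p = 0.169) and -0.38 in a fit of the compared groups alone (0.0657), where it did not pass, and at -0.46 to -0.32 without 1 array. With the replicate number as a block the counts were 2834, 1970 and 84, and NR5A2 passed (adjusted p = 0.0276). No named gene changed sign, and 134 of 169 called under doxycycline kept the call in every alternative run, as did 3 of 12 for the difference of line differences. The causes of these moves were not tested. The number of arrays, 3 a group, and dim probes limit the precision, and differences against an undetected group are bounds.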
